A study of Mus musculus with 24 samples.

Results

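The 10 genes described here are Axl, Igf1r, Pdgfra, Pdgfrb, Fgfr1, Fgfr2, Fgfr3, Ret, Kit and Epha2, which encode receptor tyrosine kinases. They were chosen by name and are 10 of 12394 genes measured, through 18 of 22690 probe sets. RNA from mouse thyroid tissue was read on 24 Affymetrix Mouse430A_2 arrays, which measure transcripts with sets of short probes, and levels are log2 intensities. The arrays held 9 recurrent tumours, 5 anaplastic thyroid cancers (ATC, an undifferentiated tumour type), 4 papillary thyroid cancers (PTC, a differentiated type) and 6 pools of normal thyroid glands, 4 of them with WT and 2 with Cre in the title. The series concerns tumours that return after the kinase BRAF is inactivated and the part that Met and its ligand Hgf play in them, so the question here was which other receptor kinases stand higher in recurrent tumours. The sources used here give no genotype, strain, age or treatment for any group beyond the tissue and tumour names. They also leave unstated whether each tumour is from its own animal, and p-values therefore reflect only the spread among these arrays, part of which may be technical.

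Receptor tyrosine kinases span the cell membrane, bind a ligand outside the cell and phosphorylate tyrosines on themselves and on adaptor proteins inside it, which feeds the Ras and MAPK cascade and the PI3 kinase pathway. Several of them can restore MAPK signalling in tumour cells whose BRAF is blocked. In normal thyroid and its tumours they are known from different cells: Ret from the calcitonin-producing C cells and from the fusions found in human papillary carcinoma, Kit from follicular epithelium and mast cells, the PDGF receptors from fibroblasts and pericytes, and the insulin-like growth factor receptor from follicular cells.

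Promoter sequences of Pdgfra and Axl are shown because these members were called higher in recurrent tumours against both PTC and normal thyroid. Each runs from 250 bases before the RefSeq gene start to 50 after it, 300 bases in all, 5′ to 3′ on the gene's strand, in GRCm38.p6. Pdgfra lies at chr5:75152001-75152300 on the plus strand and Axl at chr7:25788684-25788983 on the minus strand. Capitals mark a GC box, the letters GGGCGG or CCGCCC.
Pdgfra: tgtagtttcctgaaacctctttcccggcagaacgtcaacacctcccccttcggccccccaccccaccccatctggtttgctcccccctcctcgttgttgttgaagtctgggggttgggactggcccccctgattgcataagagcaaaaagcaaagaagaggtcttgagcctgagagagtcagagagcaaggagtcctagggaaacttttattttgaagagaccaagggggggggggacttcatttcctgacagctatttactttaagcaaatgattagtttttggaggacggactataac
Axl: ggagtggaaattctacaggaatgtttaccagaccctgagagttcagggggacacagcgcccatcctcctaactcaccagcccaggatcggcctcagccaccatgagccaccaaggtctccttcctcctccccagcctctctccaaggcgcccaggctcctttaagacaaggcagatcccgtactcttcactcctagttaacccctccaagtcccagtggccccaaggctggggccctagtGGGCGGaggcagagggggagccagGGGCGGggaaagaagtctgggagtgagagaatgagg
The Pdgfra window was 51.0% G and C and had no GC box, and the Axl window was 60.3% G and C and had 2. Promoter windows were counted for 7 of the 10 members, and none was counted for Pdgfrb, Fgfr1 or Ret. Of these 7 members, 5 had a GC box, against 35.7% of 32851 mouse promoters of the same length. The AP-1 motif TGANTCA, which reads the same on both strands, was in 0 of the 7, against 7.81% of all promoters. A match to these letters is a description of the window only.

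Groups were unequal in their spread. Averaged over genes, the SD within the group was 0.674 in recurrent tumours, 0.353 in ATC, 0.188 in PTC and 0.237 in normal pools. Follicular markers set the groups apart, with the mean of 11 thyroid genes at 5.21 to 7.65 in recurrent tumours, 5.47 to 7.28 in ATC, 8.07 to 8.62 in PTC and 9.54 to 9.92 in normal pools. The mean of 12 epithelial markers was 7.24 to 10.84 in recurrent tumours, against 9.78 to 11.95 in ATC, 11.33 to 11.90 in PTC and 10.83 to 11.69 in normal pools. In recurrent array 2 Braf lay at 11.14, within the 10.29 to 11.98 of the ATC arrays, while the other recurrent arrays had Braf at 5.62 to 7.14. Array titles form series: JK in 13 (3 recurrent, 2 ATC, 4 PTC and 4 normal), a bare number in 9 (6 recurrent and 3 ATC) and Cre in 2 (normal). Comparisons with normal that leave out JK titles therefore set bare-number tumours against the 2 Cre pools. Series and group cannot be told apart in them. The difference between 3′ and 5′ Gapdh probe sets, a measure of RNA integrity and labelling, moved with the series: on the log2 scale it was 0.36 to 1.07 for JK and -0.02 to 0.17 for bare-number recurrent arrays. In ATC it was 0.82 to 0.96 and 0.07 to 0.15 in the same order, in PTC 1.11 to 1.60, and in all normal pools 0.64 to 0.98. In bulk tissue, fewer cells of a type and less RNA per cell cannot be told apart.

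Against ATC, none of the 10 kinases was called higher in recurrent tumours and 1, Pdgfrb, was called lower, at an adjusted p under 0.05 from limma over all 12394 genes. Of all genes, 4.32% were called in that comparison, 1.19% higher and 3.12% lower. The members' median difference was -0.02 on the log2 scale, beside 0.05 over all genes. Against PTC, Pdgfra and Axl were called higher and Igf1r lower, where 21.8% of genes were called, 9.71% higher and 12.1% lower. Against normal pools, Axl, Pdgfra, Fgfr1, Epha2 and Pdgfrb were called higher and Fgfr2, Kit and Ret lower, so 8 of 10 members were called, where 33.8% of genes were called, 14.5% higher and 19.3% lower. The members' median differences there were 0.24 against PTC and 0.44 against normal, beside -0.01 and -0.03 over all genes. Groups that do not overlap at all were found for 0.888% of genes between recurrent tumours and ATC (0.202% with every array above and 0.686% below), for 9.56% between recurrent tumours and PTC (4.05% above, 5.51% below) and for 8.02% between recurrent tumours and normal pools (2.9% above, 5.12% below). For ATC against PTC they were 32.5% of genes, for ATC against normal 34.1% (14.9% above, 19.2% below) and for PTC against normal 34.3% (14.6% above, 19.7% below), so a lack of overlap was common among the smaller groups. These comparisons share the recurrent arrays, and those with normal tissue below share its 6 pools.

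In ATC 2 of 10 members were called against PTC, where Pdgfrb was higher and Igf1r lower and 17.2% of all genes were called, 7.81% higher and 9.35% lower. Against normal 7 of 10 were called, with Epha2, Axl, Pdgfrb and Fgfr1 higher and Fgfr2, Kit and Igf1r lower, where 34.3% of genes were called, 15.1% higher and 19.1% lower. In PTC against normal 4 of 10 were called, Epha2 and Igf1r higher and Kit and Ret lower, where 14.2% of genes were called, 6.16% higher and 8.03% lower. Without recurrent array 2, whose Braf was at the ATC level, 3 members were called in recurrent tumours against PTC and 7 against normal, and without array 6, which was low in several members, 4 and 8. Against ATC 1 member was called in each of these fits, but not Pdgfrb (limma adjusted p = 0.0578 in both): it was Epha2, lower, without array 2, and Pdgfra, higher, without array 6. Calls over all 12394 genes moved as well. Without recurrent array 6 they numbered 3393 against PTC and 4849 against normal, from 2706 and 4194 with all arrays. Without recurrent array 2 they numbered 844 against ATC, from 535.

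**Figure D1:**
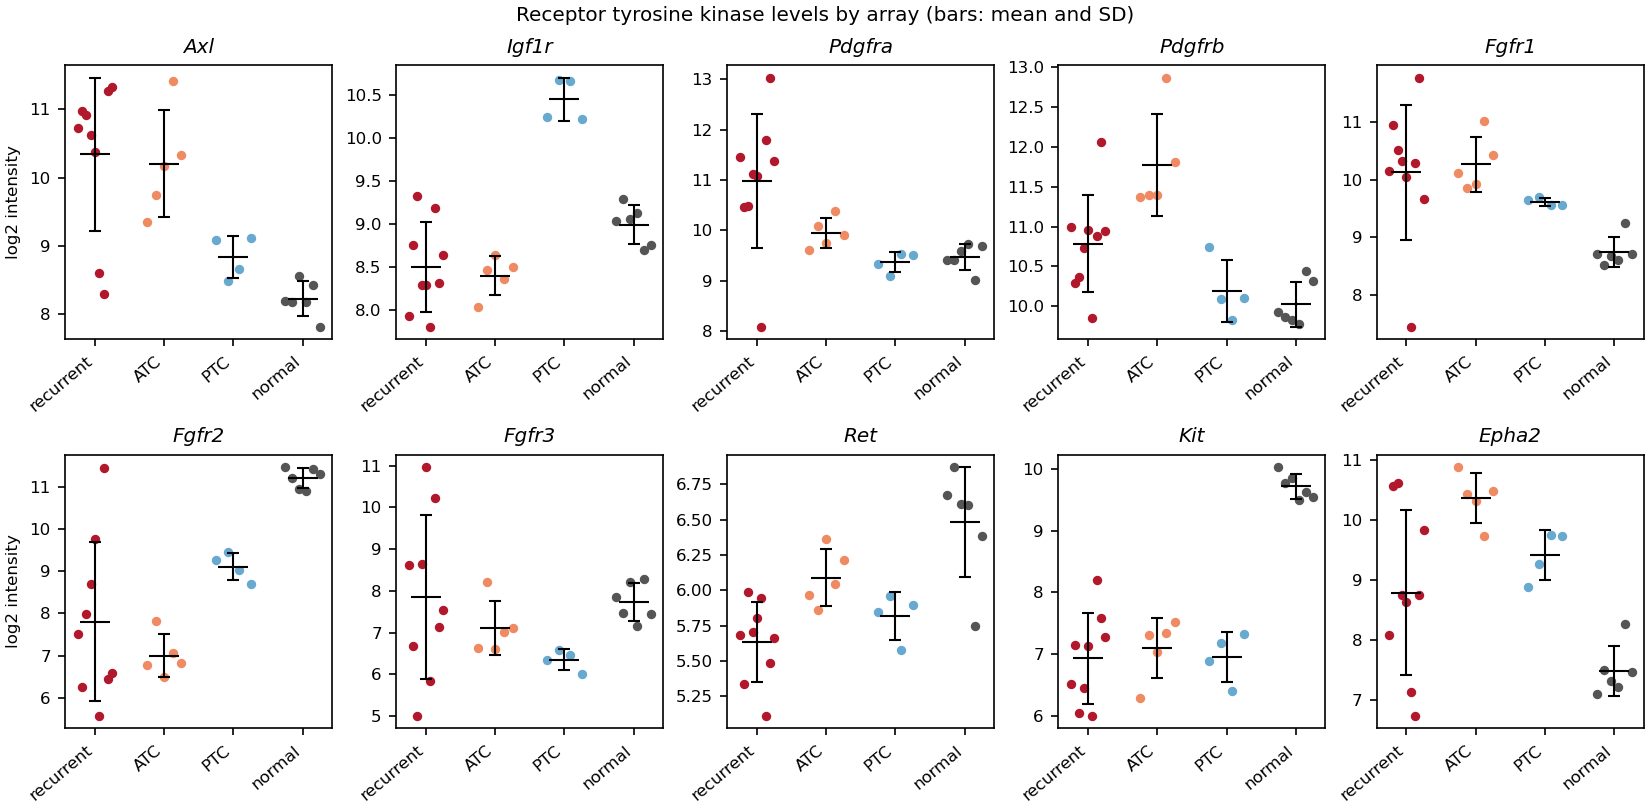
Log2 intensity of the 10 receptor kinases on each array (points), by group, with the mean and SD of each group (bars). Points of Pdgfra in recurrent tumours lie above all other groups except for array 6 at 8.09, and normal pools lie above every tumour for Kit.

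Pdgfra encodes the PDGF receptor alpha, which binds all PDGF dimers but the D form and marks fibroblasts and other mesenchymal cells. On the recurrent arrays it lay at 11.46, 10.46, 10.48, 11.11, 11.07, 8.09, 11.78, 13.03 and 11.38 for arrays 1 to 9. ATC arrays had 9.61, 10.08, 9.74, 10.39 and 9.91, PTC arrays 9.33, 9.09, 9.52 and 9.51, and normal pools 9.01 to 9.73 with a median of 9.50. 8 of the 9 recurrent tumours were above every array of the 3 other groups, and array 6 was below all of them. Recurrent tumours averaged 10.98 ± 1.33 (SD, n = 9), against 9.94 ± 0.31 in ATC (n = 5), 9.36 ± 0.20 in PTC (n = 4) and 9.47 ± 0.26 in normal pools (n = 6). The difference from normal was 1.51 ± 0.43 (SE; 2.86-fold, limma adjusted p = 0.00937) and that from PTC was 1.62 ± 0.49 (3.07-fold, adjusted p = 0.0214). Against ATC it was 1.04 ± 0.46, with a 95% interval of 0.09 to 1.99 and an adjusted p of 0.226 by limma, which does not pass.

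Against ATC, Pdgfra passed without recurrent array 6 (1.40, limma adjusted p = 0.00559) and with array weights (1.60, 0.00149). Within the JK arrays it was 0.96 and within the others 1.07 (adjusted p = 0.0623 and 0.686). The call against PTC, whose arrays are all of the JK series, was lost in a fit of these groups alone (adjusted p = 0.122), with the JK titles as a block (0.0633), with the bare-number titles as a block (0.0894), and without PTC array 1 (0.0521) or 2 (0.0725). The difference from normal was 1.27 within JK arrays (limma adjusted p = 0.00115). Without them, where bare-number tumours meet the Cre-titled pools alone, it was 1.73 (0.362). The call was also lost with the bare-number titles as a block (1.36, 0.0559). A further Pdgfra probe set gave 1.20 against ATC, 2.17 against PTC and 1.93 against normal (limma adjusted p = 0.0818, 0.000459 and 0.000221), so its signs were the same.

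Pdgfrb, the receptor for PDGF-B and PDGF-D and a marker of pericytes, was lower in recurrent tumours than in ATC but higher than in normal thyroid. Recurrent arrays 1 to 9 had 10.99, 10.29, 10.37, 10.73, 10.95, 9.86, 10.88, 12.06 and 10.94. ATC arrays had 11.37, 11.39, 11.40, 12.87 and 11.81, PTC arrays 10.74, 10.08, 9.83 and 10.10, and normal pools 9.78 to 10.44 with a median of 9.89. 8 of 9 recurrent tumours were below all ATC arrays, array 8 being the exception, and all ATC arrays were above all PTC and normal ones. The recurrent mean was 0.98 ± 0.28 lower than that of ATC, a difference of -0.98 that only just passed (limma adjusted p = 0.0491). That call was lost in 13 of 14 fits that left out 1 array, with an adjusted p of up to 0.148 without ATC array 4, where the difference was -0.71. Within JK arrays the difference was -0.83 and within the others -1.12 (adjusted p = 0.072 and 0.391).

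ATC exceeded normal in Pdgfrb by 1.74 ± 0.31 (3.34-fold, limma adjusted p = 0.000141) and PTC by 1.58 ± 0.34 (adjusted p = 0.0025). Recurrent tumours exceeded normal by 0.76 ± 0.27 (adjusted p = 0.0311), a call lost with the JK titles as a block (0.60, adjusted p = 0.0756), with the bare-number titles as a block (0.45, 0.275), without JK titles (0.52, 0.617), without recurrent arrays 5 and 7 (0.72, 0.0605) and in 5 of 15 fits that left out 1 array. A further Pdgfrb probe set gave -0.73 for recurrent tumours against ATC and 0.56 against normal, neither called (limma adjusted p = 0.139 and 0.0879), and 1.30 for ATC against normal, which was called (0.00134). Pericyte and smooth muscle markers stood beside it. Of 11 measured, 2 (Tagln and Mcam) were called lower in recurrent tumours than in ATC, 4 were lower and 0 higher in recurrent tumours than in normal, and 3 (Tagln, Acta2 and Mcam) were higher in ATC than in normal. The mean of the 11 was 6.95 to 9.46 in recurrent tumours, 8.82 to 9.78 in ATC, 8.16 to 8.48 in PTC and 8.29 to 8.75 in normal pools. Of 12 fibroblast markers, 0 were called between recurrent tumours and ATC, 5 were called higher in recurrent tumours than in normal and 7 higher in ATC than in normal, among them the collagen gene Col1a1 by 4.22 and 4.87. The mean of the 12 was 9.48 to 12.02 in recurrent tumours, 11.33 to 12.11 in ATC, 10.05 to 11.39 in PTC and 9.67 to 10.20 in normal pools. The part of such cells in the PDGF receptor levels was not tested.

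Among PDGF ligands, Pdgfc, which binds the alpha receptor after its CUB domain is cleaved, was far above normal in all tumours. It averaged 9.77 ± 1.39 in recurrent tumours, 10.18 ± 0.53 in ATC and 9.41 ± 0.52 in PTC, against 6.86 ± 0.43 in normal pools, and no tumour array overlapped the pools. The differences were 2.91 ± 0.48, 3.32 ± 0.55 and 2.56 ± 0.59, all called by limma. Recurrent array 8, the highest in Pdgfra, was also the highest in Pdgfc at 11.88. Pdgfb, the ligand of both receptors, was lower in recurrent tumours than in ATC, with a difference of -0.96 ± 0.26 (limma adjusted p = 0.0369), and it was the only ligand or co-receptor called in that comparison. Pdgfd, a ligand of the beta receptor, was lower in recurrent tumours than in PTC with a difference of -1.25, and Pdgfa, which binds the alpha receptor, was 0.97 higher in ATC than in PTC.

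Axl encodes a receptor of the TAM family that binds Gas6 and protein S and is known for its part in mesenchymal tumour cells that withstand kinase inhibitors. Recurrent arrays 1 to 9 had 10.72, 10.97, 10.91, 10.63, 10.38, 8.60, 8.29, 11.26 and 11.33. ATC arrays had 9.35, 9.75, 10.17, 11.42 and 10.33, PTC arrays 9.08, 8.48, 8.67 and 9.11, and normal pools 7.82 to 8.55 with a median of 8.19. 7 of the 9 recurrent tumours were above every PTC array, and all but arrays 6 and 7 lay far above normal. ATC arrays were all above PTC and normal arrays, and the recurrent and ATC ranges overlapped.

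Recurrent tumours exceeded normal in Axl by 2.12 ± 0.41 (4.34-fold, limma adjusted p = 0.000328) and ATC exceeded it by 1.98 ± 0.47 (3.93-fold, adjusted p = 0.00216). Against PTC the recurrent difference was 1.51 ± 0.46 (2.85-fold, adjusted p = 0.0218). That call was lost in a fit of the 2 groups alone (adjusted p = 0.0915), with the bare-number titles as a block (0.0521) and without PTC array 2 (0.0801) or 3 (0.0666). Against ATC the difference was 0.14 ± 0.43, with an interval of -0.75 to 1.03 (adjusted p = 0.906). The title series disagreed here: within the JK arrays recurrent tumours exceeded ATC by 1.32 (adjusted p = 0.00497), and within the other arrays the difference was -0.56 (adjusted p = 0.813). Against normal the differences were 2.59 within JK arrays and 1.96 without them (limma adjusted p = 1.22e-06 and 0.221). A further Axl probe set lay at 3.28 to 4.34 on all arrays and showed a difference of 0.09 between recurrent tumours and normal (adjusted p = 0.617).

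Of the ligands of Axl, Pros1 was called and Gas6 was not. Pros1, encoding protein S, was 1.05 ± 0.30 higher in recurrent tumours than in normal (limma adjusted p = 0.00868) and averaged 9.37 ± 0.85 against 8.32 ± 0.32. Gas6 was called in 0 comparisons. It lay at 6.35 in recurrent array 2, 7.93 in 3, 8.61 in 7 and 8.94 in 6, below every ATC, PTC and normal array, the lowest of which was at 9.78, and at 10.52 to 11.60 in the remaining recurrent arrays. Of the other TAM receptors, Tyro3 was 2.00 higher in recurrent tumours than in normal. PTC was also called higher than normal in Tyro3, with means of 5.99 and 4.45. Between recurrent tumours and PTC or ATC Tyro3 was not called. Mertk, the efferocytosis receptor of macrophages, was 1.22 higher in recurrent tumours than in PTC and was not called against normal. ATC was also called higher than PTC in Mertk, and PTC lower than normal.

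**Figure D2:**
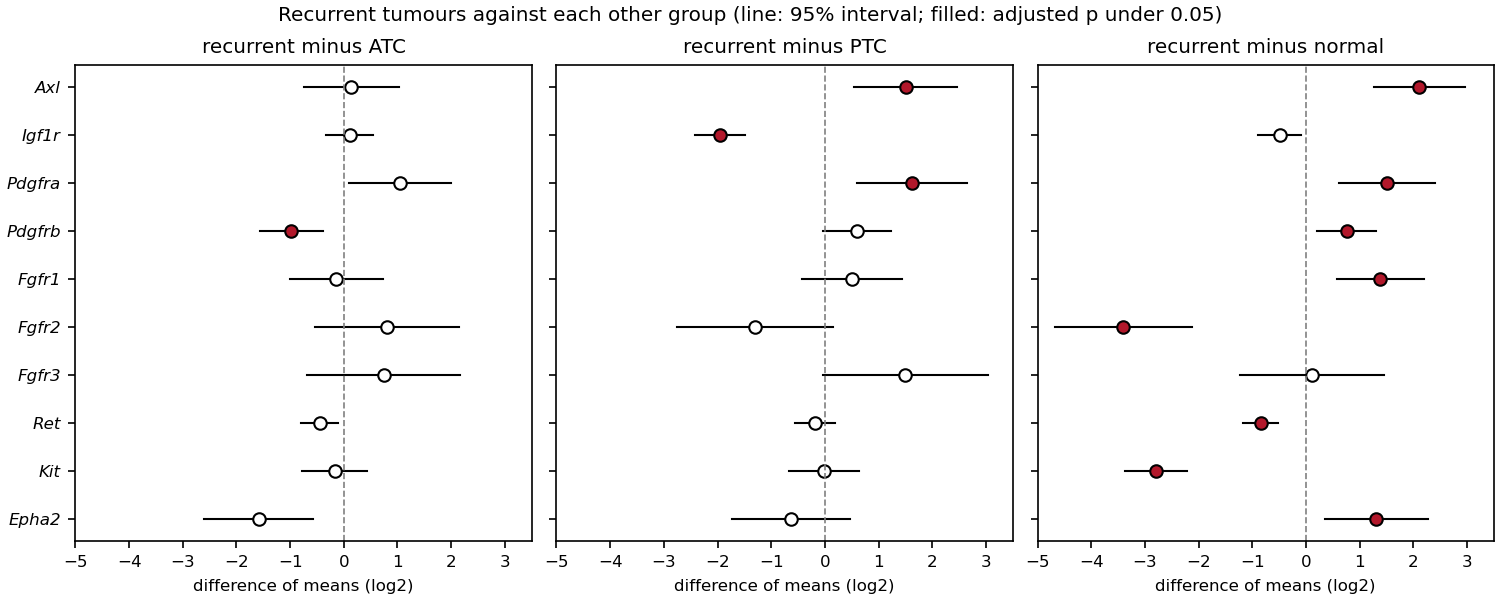
Difference of mean log2 intensity, recurrent tumours minus ATC, PTC or normal pools, for the 10 receptor kinases, with 95% intervals from limma (lines) and calls at an adjusted p under 0.05 (filled points). Pdgfrb at -0.98 is the only filled point against ATC, while 8 points are filled against normal.

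Among the FGF receptors, Fgfr1 was higher and Fgfr2 lower in recurrent tumours and ATC than in normal thyroid, and Fgfr3 ranged widely within the recurrent group. Fgfr1, the FGF receptor widely expressed in mesenchymal cells, had 10.16, 10.96, 10.52, 10.33, 10.05, 7.45, 10.28, 11.77 and 9.66 on recurrent arrays 1 to 9. ATC arrays had 10.12, 9.86, 9.92, 11.02 and 10.43, PTC arrays 9.66, 9.70, 9.57 and 9.56, and normal pools 8.52 to 9.24 with a median of 8.70. 8 recurrent tumours and all ATC and PTC arrays were above the pools, and recurrent array 6 was below every other array of the series. The difference from normal was 1.39 ± 0.39 in recurrent tumours (2.62-fold, limma adjusted p = 0.00867) and 1.53 ± 0.45 in ATC (2.88-fold, adjusted p = 0.0112). In PTC it was 0.88 ± 0.48 and did not pass (adjusted p = 0.261). PTC against normal did pass with the 2 groups alone (limma adjusted p = 0.00022), within JK arrays (0.000632) and with array weights (8.04e-05). Between recurrent tumours and ATC the difference was -0.14 (interval -1.0 to 0.72), and between recurrent tumours and PTC 0.51. Neither of these passed (limma adjusted p = 0.903 and 0.461). The difference from PTC passed within JK arrays, to which all PTC arrays belong (0.92, adjusted p = 0.00142), with array weights (0.71, 0.0258) and without recurrent array 6 (0.85, 0.0259). A further Fgfr1 probe set gave 0.08 for recurrent tumours against ATC, the opposite sign (adjusted p = 0.946), and 1.20 and 1.12 for recurrent tumours and ATC against normal, both called (0.0123 and 0.0401). Against normal, Fgfr1 was 1.92 higher within JK arrays (adjusted p = 4.89e-06) and 0.95 higher without them (0.586).

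Fgfr2, the FGF receptor of epithelial cells in its IIIb form, had the largest difference among the members between recurrent tumours and normal thyroid and between ATC and normal thyroid. Recurrent arrays had 7.52, 6.25, 7.98, 8.69, 9.77, 5.57, 11.44, 6.44 and 6.59. ATC arrays had 6.79, 7.83, 6.49, 7.07 and 6.82, PTC arrays 9.26, 9.46, 9.03 and 8.69, and normal pools 10.90 to 11.47 with a median of 11.25. Only recurrent array 7 reached the level of the normal pools, and every ATC and PTC array was below them. Recurrent tumours differed from normal by -3.40 ± 0.61 (10.6-fold lower, limma adjusted p = 0.000186) and ATC by -4.21 ± 0.71 (18.5-fold lower, adjusted p = 8.32e-05). PTC differed by -2.10 ± 0.75 (adjusted p = 0.066), which did not pass, although the groups did not overlap. The PTC difference passed in a fit of the 2 groups alone (limma adjusted p = 3.26e-06) and within JK arrays (0.00124). It also passed with the mean of probe sets (0.0428) and with array weights (9.58e-07). Within JK arrays the recurrent difference from normal was -3.88 (adjusted p = 1.05e-05) and without them -3.28 (0.203).

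Between recurrent tumours and PTC the Fgfr2 difference was -1.30 ± 0.70 and did not pass (limma adjusted p = 0.197). It passed within JK arrays (-1.86, adjusted p = 0.00287), with array weights (-1.55, 0.00316) and without recurrent array 7 (-1.76, 0.0183). A further Fgfr2 probe set had the opposite sign there, at 0.24 (adjusted p = 0.804), and gave -1.77 for recurrent tumours, -2.94 for ATC and -2.01 for PTC against normal, all called (0.00759, 0.000344 and 0.0292).

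Fgfr3, a receptor known for restraining growth of cartilage and bone, had 8.62, 6.67, 5.0, 8.65, 10.97, 5.83, 10.23, 7.13 and 7.54 on recurrent arrays 1 to 9. ATC arrays had 6.62, 8.20, 6.60, 7.02 and 7.10, PTC arrays 6.33, 6.59, 6.47 and 6.01, and normal pools 7.15 to 8.29 with a median of 7.66. Recurrent arrays 5 and 7 were the highest of the series and array 3 the lowest, so recurrent tumours lay on both sides of every other group. No comparison called Fgfr3 in the main fit. PTC against normal (-1.39, limma adjusted p = 0.287) passed in a fit of the 2 groups alone (0.000456) and with array weights (0.000236). Recurrent tumours against PTC passed with array weights (0.00143) and without recurrent array 3 (0.0417). The recurrent differences were 0.74 ± 0.69 from ATC, 1.5 ± 0.74 from PTC and 0.12 ± 0.65 from normal (limma adjusted p = 0.622, 0.155 and 0.913). A further Fgfr3 probe set gave 0.42, 0.56 and 0.31 in the same order, none called.

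The mean of listed cartilage genes was high on the same arrays, though not every gene of the list followed. The mean of 7 cartilage markers was 9.25 in recurrent array 5 and 10.09 in array 7, against 5.91 to 7.39 in the other recurrent arrays, 6.41 to 7.09 in ATC, 6.21 to 6.84 in PTC and 5.64 to 6.0 in normal pools. Col2a1, the collagen of hyaline cartilage, was at 10.22 and 13.47 in arrays 5 and 7 and at most 7.41 elsewhere in the series. Matn3, a cartilage matrix protein, was at 7.77 and 9.68 there and at most 5.39 elsewhere. Sox9, of the same list, was lower in recurrent tumours than in normal by limma (-1.35, adjusted p = 0.00908). For Sox9, 8 recurrent arrays were below every pool and 1 was above. Acan and Comp, also listed, were high in other groups, with means of 9.58 for Acan in ATC and 10.06 for Comp in PTC. Leaving out recurrent arrays 5 and 7 was a setting chosen after seeing the data. Recurrent tumours then differed from ATC by -0.04 in Fgfr3 and 0.01 in Fgfr2. Fgfr2 differed from PTC by -2.10 (limma adjusted p = 0.000907), against -1.30 (0.197) with all arrays. The Fgfr2 difference from normal was then -4.20. The part of cartilage cells in the levels on arrays 5 and 7 was not tested.

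**Figure D3:**
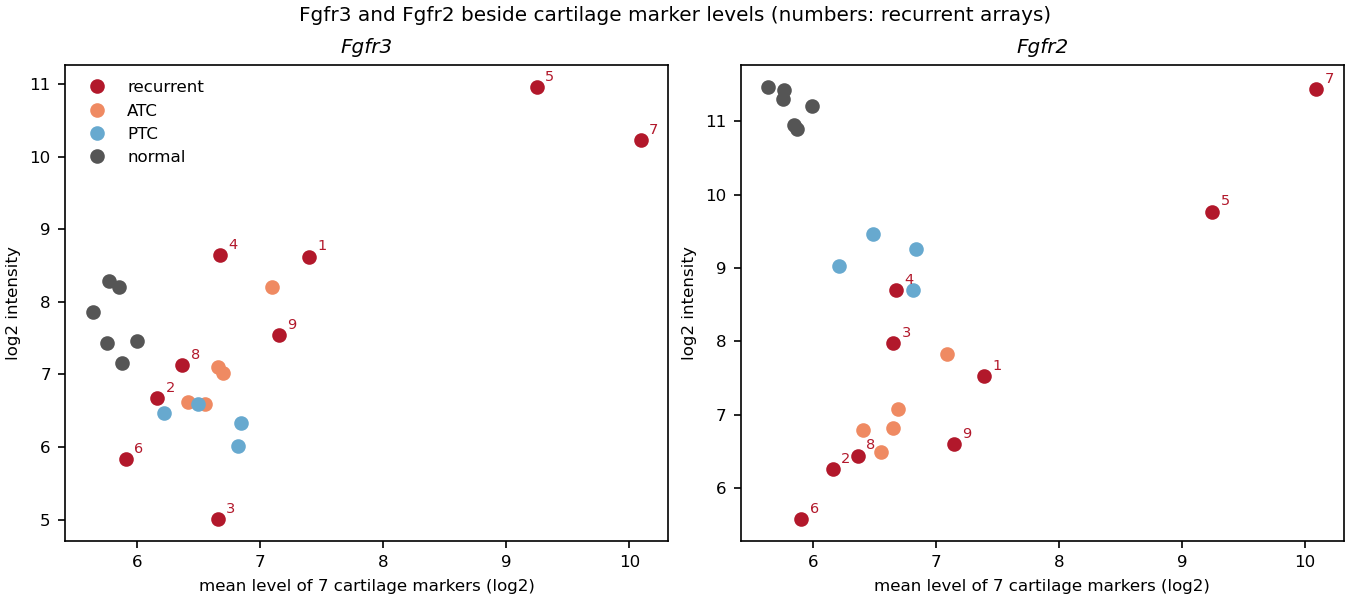
Log2 intensity of Fgfr3 (left) and Fgfr2 (right) on each array against the mean log2 level of 7 cartilage markers, coloured by group, with recurrent arrays numbered. Recurrent arrays 5 and 7 stand apart at 9.25 and 10.09 on the horizontal axis and hold the highest Fgfr3 levels.

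Fgf1, a ligand of all FGF receptors, was 22.7-fold lower in recurrent tumours than in normal, at 5.70 ± 0.58 against 10.20 ± 0.25, a difference of -4.50 ± 0.30. ATC differed from normal by -3.70 and PTC by -2.20, and no array of these tumours overlapped the pools. The co-receptors of endocrine FGFs were also lower than in normal: Kl differed by -3.71 in recurrent tumours, -4.47 in ATC and -4.81 in PTC, and Klb by -1.25, -1.43 and -1.05. Parathyroid cells express Kl, and the mean of 3 parathyroid markers was 4.46 to 8.92 in recurrent tumours, 4.55 to 8.53 in ATC, 5.04 to 7.25 in PTC and 8.67 to 9.08 in normal pools. The part of parathyroid tissue in Kl was not tested. Fgf7, a fibroblast ligand of the epithelial form of Fgfr2, was 1.65 ± 0.37 higher in recurrent tumours than in normal (limma adjusted p = 0.00134) and 1.23 ± 0.42 higher than in PTC (0.0375), with 9.20 in array 9 and 8.71 in array 8. Fgf18 exceeded normal by 0.98 in recurrent tumours and 1.14 in ATC.

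**Figure D4:**
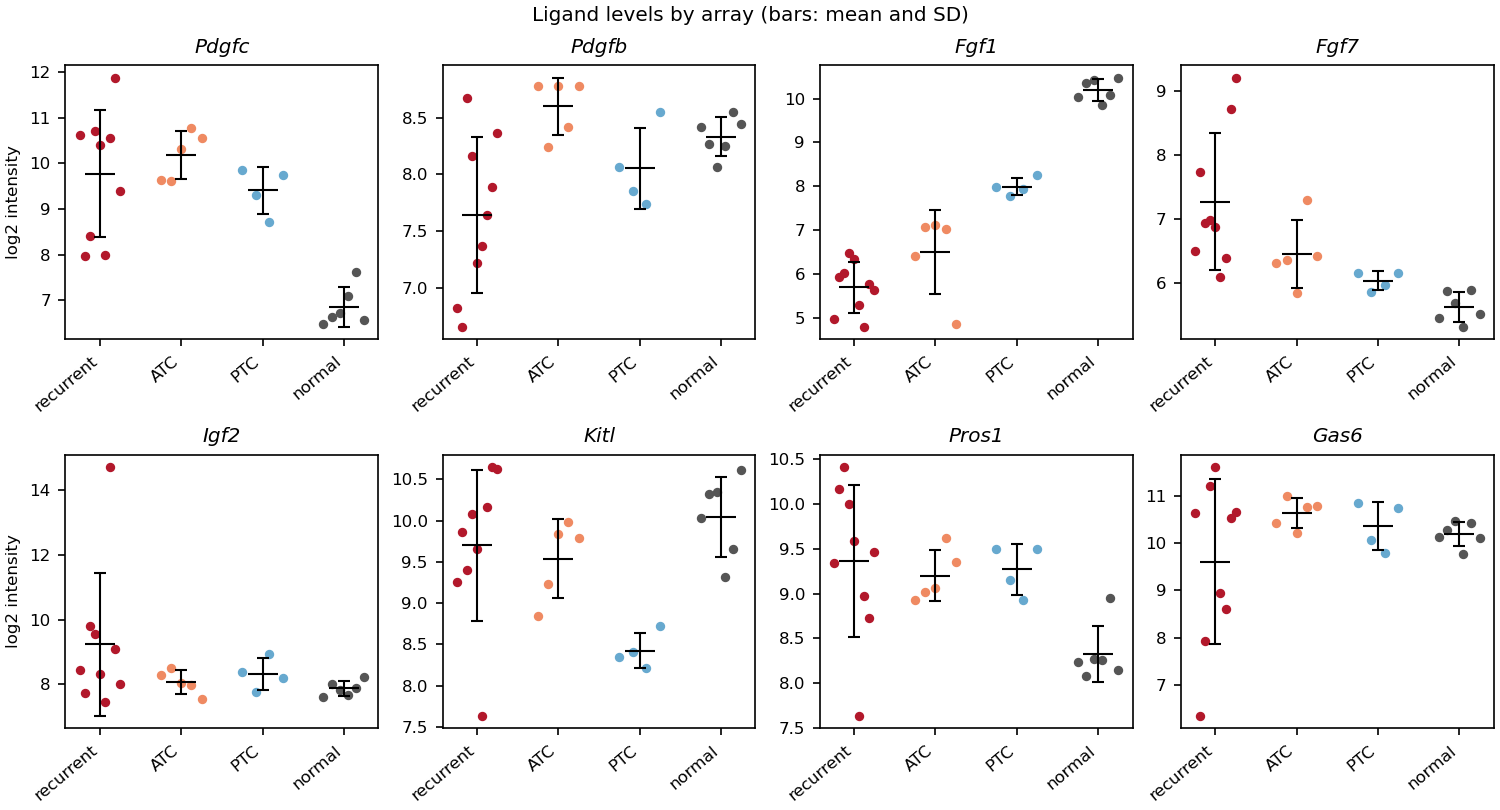
Log2 intensity of 8 ligands of the receptors on each array (points) by group, with mean and SD (bars). Fgf1 falls in every tumour group, Pdgfc is above the normal pools in every tumour, and Igf2 reaches 14.73 in recurrent array 7.

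Igf1r encodes the receptor for insulin-like growth factors, which act with TSH on follicular cells. Its level was highest in PTC. PTC arrays had 10.24, 10.67, 10.66 and 10.22, above every other array, while recurrent arrays had 7.92, 8.75, 9.32, 8.28, 8.28, 7.80, 9.18, 8.30 and 8.64. ATC arrays had 8.03, 8.46, 8.63, 8.35 and 8.49 and normal pools 8.69 to 9.28 with a median of 9.04. Recurrent tumours differed from PTC by -1.95 ± 0.22 (3.86-fold lower, limma adjusted p = 1.74e-06), ATC differed from PTC by -2.05 ± 0.25 (4.15-fold lower, adjusted p = 5.56e-06), and PTC exceeded normal by 1.46 ± 0.24 (2.75-fold, adjusted p = 0.000245). These 3 calls held in every alternative tried and with each array left out, apart from the further probe set below. In recurrent tumours the difference from normal was -0.49 ± 0.20 (adjusted p = 0.0578) and in ATC -0.60 ± 0.23 (0.0441), and the ATC call was kept in only 3 of 11 fits that left out 1 array. A further Igf1r probe set gave -0.67 for recurrent tumours against PTC, -0.85 for ATC against PTC and 0.49 for PTC against normal (limma adjusted p = 0.0311, 0.0191 and 0.211).

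Neither Igf1 nor Igf2, the ligands of Igf1r, was called in any comparison. Igf2 was at 14.73 in recurrent array 7, close to the top of the scale, and at 7.43 to 9.79 on the other recurrent arrays, 7.54 to 8.51 in ATC, 7.74 to 8.93 in PTC and 7.58 to 8.23 in normal pools. Igf1 lay at 5.86 in recurrent array 2, against 8.43 to 10.93 on the other 8. Among 10 genes that bind or clear these ligands, Igfbp3 was lower in recurrent tumours than in ATC with a difference of -2.33 ± 0.33 and was 2.82 higher in ATC than in normal. Igfbp2 was 3.15 ± 0.78 higher in recurrent tumours than in normal. Igf2r, which takes up Igf2 for breakdown, was highest in PTC, where it exceeded normal by 1.88, and recurrent tumours differed from PTC by -1.50. Irs2, an adaptor of the receptor, was also highest in PTC, with a difference of -1.54 for recurrent tumours against PTC and 1.42 for PTC against normal.

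Kit, the receptor for stem cell factor, was lower in every tumour. Recurrent arrays 1 to 9 had 6.52, 7.15, 6.05, 6.46, 7.13, 6.0, 8.19, 7.59 and 7.28, ATC arrays 6.29, 7.31, 7.03, 7.35 and 7.53, and PTC arrays 6.89, 7.18, 6.41 and 7.33. Normal pools had 9.50 to 10.03 with a median of 9.70, above every tumour array. The differences from normal were -2.79 ± 0.28 in recurrent tumours (6.92-fold lower, limma adjusted p = 1.06e-07), -2.62 ± 0.32 in ATC (6.16-fold, adjusted p = 2.1e-06) and -2.77 ± 0.34 in PTC (6.81-fold, adjusted p = 8.22e-06). Within JK arrays the recurrent difference was -3.21 and without them -2.48, both called. The tumour groups differed by 0.17 or less from each other in size of the mean, and none of those differences was called. A further Kit probe set showed -0.45, -0.55 and -0.32 for the 3 tumour groups, the last of which was not called (adjusted p = 0.262).

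Mast cells carry Kit, so their markers were read beside it. Of 11 mast cell markers, 6 were called higher and 0 lower in recurrent tumours than in normal, and 6 higher and 0 lower in ATC than in normal. Tpsab1, a tryptase, exceeded normal by 2.53 in recurrent tumours and 2.81 in ATC. The mean of the 11 was 5.49 to 8.05 in recurrent tumours, 6.71 to 7.24 in ATC, 5.63 to 5.80 in PTC and 5.44 to 5.67 in normal pools. Of 11 thyroid follicular markers, 10 were called lower than in normal in recurrent tumours and in ATC. In PTC 6 of the 11 were lower and 1 was higher. The mean of the follicular markers was 5.21 to 7.65 in recurrent tumours, 5.47 to 7.28 in ATC, 8.07 to 8.62 in PTC and 9.54 to 9.92 in normal pools. No Kit difference between the tumour groups was called. The part of follicular cells in the Kit level was not tested. Kitl, its ligand, was 1.28 ± 0.38 higher in recurrent tumours than in PTC and differed by -1.62 ± 0.41 between PTC and normal (limma adjusted p = 0.0199 and 0.00946).

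Ret, the receptor for GDNF family ligands, was dim throughout. It lay at 5.11 to 5.99 with a median of 5.68 in recurrent tumours, at 5.96, 5.86, 6.36, 6.04 and 6.21 in ATC, at 5.85, 5.96, 5.58 and 5.90 in PTC, and at 5.75 to 6.87 with a median of 6.61 in normal pools. No array stood out upward among the tumours, and the groups overlapped. The difference from normal was -0.85 ± 0.15 in recurrent tumours (1.80-fold lower, limma adjusted p = 0.000212), -0.39 ± 0.18 in ATC (adjusted p = 0.0932) and -0.66 ± 0.19 in PTC (adjusted p = 0.021, lost without normal pool 2 or PTC array 3). Within JK arrays the recurrent difference was -1.02 and without them -0.45 (adjusted p = 0.00036 and 0.339). C-cell markers were lower with it: 6 of 8 were called lower in each tumour group than in normal, 1 (Calcb) was higher in ATC, and their mean was 4.89 to 7.42 in recurrent tumours, 5.49 to 7.18 in ATC, 5.34 to 6.16 in PTC and 7.85 to 9.81 in normal pools. The part of C cells in the Ret level was not tested. Gdnf, a Ret ligand, was 1.45 higher in recurrent tumours and 2.55 higher in PTC than in normal, while Gfra4, a co-receptor of Ret, was lower in recurrent tumours than in PTC with a difference of -2.20.

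Epha2, an ephrin receptor of epithelial cells that the MAPK pathway can induce, was highest in ATC. Recurrent arrays 1 to 9 had 8.08, 10.57, 10.62, 8.76, 8.64, 7.13, 6.74, 8.76 and 9.84. ATC arrays had 10.89, 10.43, 10.33, 9.74 and 10.49, PTC arrays 8.89, 9.27, 9.76 and 9.74, and normal pools 7.10 to 8.27 with a median of 7.40. Recurrent arrays 2, 3 and 9 reached the ATC range, and the other 6 recurrent arrays were below all ATC arrays. Array 2 is the recurrent array with Braf at the ATC level. The order was ATC at 10.38 ± 0.42, PTC at 9.42 ± 0.42, recurrent at 8.79 ± 1.37 and normal at 7.48 ± 0.42. In the main fit, no neighbours in that order but recurrent and normal differed at the threshold. ATC against PTC (0.96, limma adjusted p = 0.291) passed in a fit of the 2 groups alone (0.014) and with array weights (0.00691).

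ATC exceeded normal in Epha2 by 2.90 ± 0.53 (7.44-fold, limma adjusted p = 0.00022), PTC by 1.93 ± 0.57 (3.82-fold, adjusted p = 0.0241) and recurrent tumours by 1.31 ± 0.46 (2.48-fold, adjusted p = 0.0325). The last call was lost in a fit of the 2 groups alone (adjusted p = 0.0901) and in 8 of 15 fits that left out 1 array, among them recurrent 2 (1.09, adjusted p = 0.0577), and the PTC call was lost without PTC array 2, 3 or 4. Within JK arrays recurrent tumours exceeded normal by 2.47 (adjusted p = 0.00206) and without them by 0.44 (0.776). The difference between recurrent tumours and ATC was -1.58 ± 0.49 and did not pass (adjusted p = 0.0694). It was called without recurrent array 2 (-1.81, adjusted p = 0.0187) or 3 (-1.81, 0.0209), with the bare-number titles as a block (-1.51, 0.0495) and with array weights (-1.59, 0.00507), and was -0.91 within JK arrays and -1.88 within the others. Epithelial markers were lower in recurrent tumours than in ATC, 6 of 12 at the threshold. Their mean was 7.24 and 8.01 in recurrent arrays 2 and 3, which had the highest Epha2. It was 10.84 in array 6, with Epha2 at 7.13, and 8.31 in array 7, which had the lowest Epha2. The part of epithelial cells in the Epha2 level was not tested. Efna1, a ligand of Epha2, was lower in recurrent tumours than in PTC with a difference of -1.12, and Efna5 was 0.55 higher in recurrent tumours than in normal.

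Axl, Pdgfra and Fgfr1 stood above the normal mean together on 7 of the 9 recurrent arrays, all but 6 and 7, by 2.15 to 3.11, 0.98 to 3.56 and 0.92 to 3.03 on the log2 scale. All ATC arrays were also above the normal mean in each of these genes. They exceeded it by 1.13 to 3.19 in Axl and 0.13 to 0.92 in Pdgfra. Their Fgfr1 was at 9.86 to 11.02, against 8.52 to 9.24 in the pools. Recurrent array 7 was above the normal mean in Pdgfra and Fgfr1 and at 0.06 in Axl. Recurrent array 6 was below that mean in Pdgfra and Fgfr1 and at 0.37 in Axl. Array 8 held the highest Pdgfra, Pdgfrb and Fgfr1 of the 9, at 13.03, 12.06 and 11.77, and its Pdgfra ranked 127th of 12394 genes on that array. Hgf was also highest there, at 8.08, and Met was at 8.06, next to 8.10 in array 1. Array 7 held the highest Fgfr2 and Kit and, with array 5, the highest Fgfr3, but the lowest Axl and Epha2. Array 6 held the lowest Pdgfra, Pdgfrb, Fgfr1, Fgfr2, Igf1r and Kit, and its mean of epithelial markers was the highest of the recurrent group at 10.84. Arrays 2 and 3, of the JK series, held the highest Epha2.

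**Figure D5:**
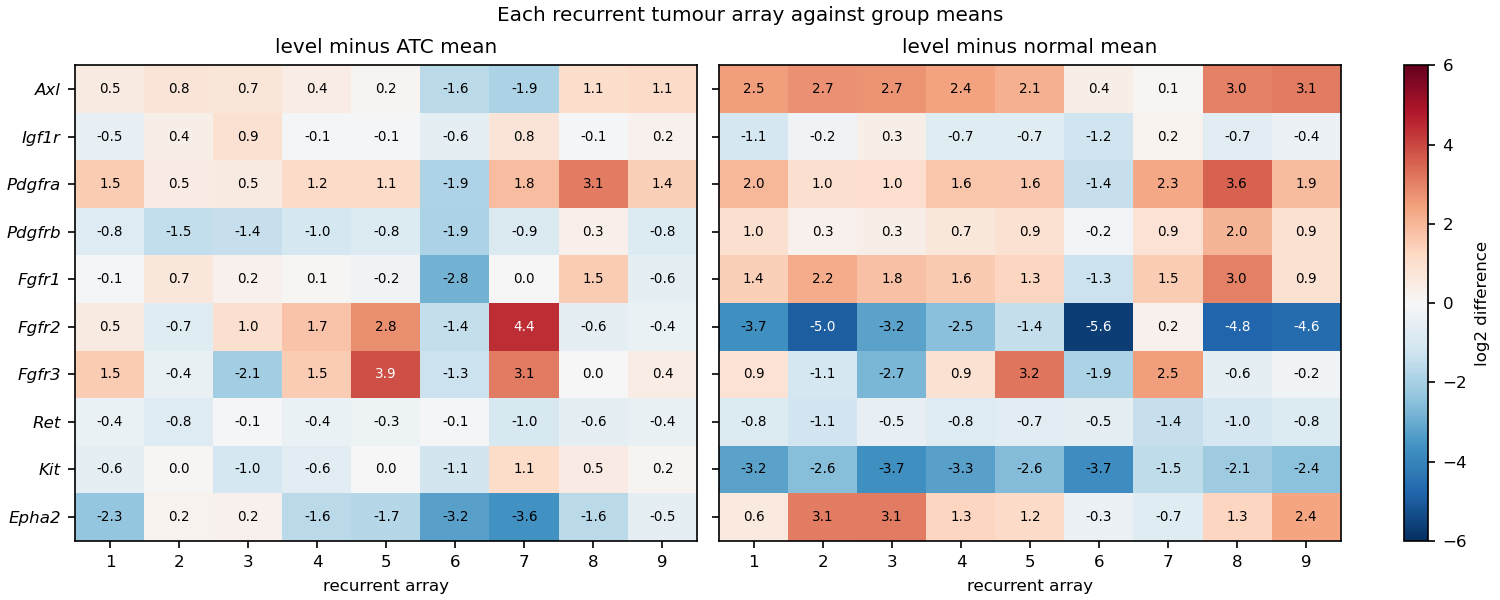
Level of each kinase on each of the 9 recurrent arrays minus the mean of ATC (left) or of normal pools (right), as log2 differences in the cells and in colour. Row by row, Kit is below the normal mean on all 9 arrays and Pdgfra above it on 8.

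Other genes of receptor signalling were counted from lists. Over all genes, 4.32% were called in recurrent tumours against ATC (1.19% higher, 3.12% lower). The shares were 21.8% against PTC (9.71% higher, 12.1% lower) and 33.8% against normal (14.5% higher, 19.3% lower). Of 43 measured ligands and co-receptors, recurrent tumours had 0 higher and 1 lower than ATC, 2 higher and 4 lower than PTC, and 6 higher and 6 lower than normal. Of 41 other receptor tyrosine kinases, 0 were higher and 1 lower than in ATC, the VEGF receptor Flt1 with a difference of -1.0. Against PTC 3 were higher and 9 lower, among them Epha7 at -3.84 and Erbb3, the neuregulin receptor, at -3.10. Against normal 6 were higher, led by the ephrin receptor Epha3 at 2.06, Tyro3 at 2.00, Ror2 at 1.37 and Met at 1.25, and 13 were lower, among them Epha7 at -3.75 and the VEGF receptor Kdr at -2.0. The list medians in the 3 comparisons were -0.03, -0.20 and -0.03, beside 0.05, -0.01 and -0.03 over all genes.

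Among 20 adaptors and proximal signalling genes, Src was the only call between recurrent tumours and ATC, with a difference of -1.10 ± 0.23 (limma adjusted p = 0.00606), and 2 were higher and 1 lower than in normal, Shc1 at 0.79 and Pik3r2 at 0.77 against Frs3 at -0.53. Of 15 genes that switch receptors off, 0 were higher and 1 lower in recurrent tumours than in ATC, the cytokine-signal suppressor Socs2 at -2.14 ± 0.37. Against normal 1 was higher, Sh3kbp1, an adaptor for receptor uptake, at 1.86, and 6 were lower, led by Grb14, an inhibitor of insulin-type receptors, at -3.51. Grb14 differed from normal by -5.16 in ATC and -3.25 in PTC. Beside these list counts, 4.32% of all genes were called in recurrent tumours against ATC and 33.8% against normal.

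Across the 24 arrays, the pairs of members most alike in pattern were Axl and Fgfr1 (Pearson r = 0.767), Fgfr2 and Kit (0.764), and Pdgfra and Fgfr1 (0.733), and Axl and Fgfr2 ran most opposite (-0.729). These describe 24 arrays whose groups differ, and the arrays share series and tissue composition. The gene most like Pdgfra was Wasf1 (0.902), like Axl Abcb1b (0.963) and then Prrx1 (0.946), like Fgfr1 Ikbip (0.927), like Pdgfrb Olfml3 (0.888), like Igf1r Trpv6 (0.913), like Fgfr2 Npr2 (0.936), like Fgfr3 Stk26 (0.865), like Kit Bcl2 (0.912), like Epha2 Hbegf (0.936) and like Ret Rgs7 (0.861), followed by Scg2 (0.852), which is in the C-cell list.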

How the data were processed

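RNA of mouse thyroid tissue was read on 24 Affymetrix Mouse430A_2 arrays. The authors deposited log2 values of 22690 probe sets, running from 2.71 to 14.96, with array medians of 7.38 to 7.58. The submitters' processing notes name RMA and Partek, with no version given in the sources used here. RMA brings arrays to a common distribution, so a shift of all genes would not be seen.

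Gene names came from the annotation of the platform (20393 with 1 symbol, 691 with several, 1606 with none) and were updated by gene identifier to RefSeq of GRCm38.p6 (20364 matched, 29 kept). Each gene is the probe set with the highest mean, and results of the second probe set, which 8 of the 10 members have, are given beside it for the main comparisons. The files name no build, so the only coordinates printed are those of promoter windows in the RefSeq table. Groups follow the tissue label. Among 276 pairs of arrays 0 were identical, with a highest correlation of 0.993.

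Differences were tested with limma 3.58.1 (R 4.3.3): 4 group means over all 24 arrays, Benjamini-Hochberg adjustment over 12394 genes, called under 0.05. The fit has a common residual spread per gene for all groups. P-values of limma between ATC, PTC and normal therefore also carry the wider spread of recurrent tumours. For normal tissue the spread is that among pools of glands. Tables and figures used Python 3.11.15, pandas 2.3.3 and matplotlib 3.10.9. On simulated data with 200 changed genes among 12394, 2-fold changes were recovered at 62% for recurrent against ATC, 66% against PTC and 73% against normal, and 4-fold changes at 87%, 87% and 90%. Unchanged genes among those calls were 19.5%, 5.56% and 8.94%, above the nominal 5%. The 10 genes, the lists, the tests and the rule for named genes were chosen with earlier results of these data known. The rule names the members, up to 4 called genes of each list per comparison with the largest differences, ligands and co-receptors, defining markers, the 3 genes most like each member and the 3 on either side of it. The text names a part of them.

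Alternatives were the 2 groups alone, title series as a block or alone, the mean over the probe sets of a gene, tests of single probe sets, removal of dim genes, repeated quantile normalization, median centring, a trended robust spread, array weights, WT-titled pools alone, each array left out and, chosen after seeing the data, recurrent arrays 5 and 7 left out. Trp53 is not analysed here.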

Additional observations from a re-analysis of the deposited data

Results flagged for a closer look

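In 4 cases the level of a member stood far from the rest of its own group, by the gap to the nearest array over the range of the group. Pdgfrb was at 12.87 in ATC array 4, against at most 11.81 in the other ATC arrays. Fgfr1 was at 7.45 in recurrent array 6, against at least 9.66 in the other recurrent arrays. Normal pool 5, with Cre in the title, had Fgfr1 at 9.24 and Epha2 at 8.27, the highest of the 6 pools for both. Of 40 groups of arrays examined 4 held such a value, and chance gives about 1 in 20, or 2 of 40.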

How the results depend on the processing

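No paired analysis was possible because the labels carry no replicate numbers that groups share, and those used here come from accession order and only name an array. The number of genes called in recurrent tumours against ATC was 535 and moved to 99 with the 2 groups alone, 933 in JK titles alone, 41 without them and 1360 with array weights, and the share higher among them was 27.7%, 7.07%, 44.2%, 2.44% and 43.4% in that order. Against PTC 2706 became 1345 (2 groups alone), 5094 (every probe set) and 5574 (array weights), and against normal 4194 became 503 (without JK titles) and 7292 (every probe set). For ATC against PTC 2127 became 4587 (2 groups alone), 3890 (every probe set) and 6318 (array weights), and for ATC against normal 4245 became 759 (without JK titles), 7130 and 7357 (every probe set and array weights). For PTC against normal 1758 became 5676, 3156, 2672 and 6370 (2 groups alone, JK titles alone, every probe set, array weights). Members called in recurrent tumours against ATC numbered 1 and became 0 with the 2 groups alone, without JK titles, with means of probe sets or without recurrent arrays 5 and 7, 2 with bare-number titles as a block and 3 with array weights. Against PTC 3 became 1 (2 groups alone, bare-number block), 5 (JK titles alone) and 7 (array weights), and against normal 8 became 1 without JK titles. For ATC against PTC 2 became 7, 4 and 7 (2 groups alone, JK titles alone, array weights), for ATC against normal 7 became 1 without JK titles, and for PTC against normal 4 became 8, 7 and 8 (2 groups alone, JK titles alone, array weights). Fits without JK titles hold fewer arrays, and the cause of the other shifts was not tested. Leaving out each array gave 286 to 844, 1757 to 3393, 3578 to 4849, 1345 to 2115, 3586 to 4102 and 1182 to 1768 genes and 0 to 1, 1 to 4, 6 to 9, 2 to 3, 6 to 8 and 2 to 4 members, in the order recurrent against ATC, PTC and normal, ATC against PTC and normal, and PTC against normal. The lowest and highest for recurrent against ATC came without ATC array 3 and without recurrent array 2. The further Axl probe set gave -0.0007 for recurrent against PTC (limma adjusted p = 0.998), the opposite sign of the value reported. Of 1470 other member differences under an alternative, 1338 kept their direction or stayed uncalled, 78 lost and 54 gained a call. Signs changed in 42 cases over 14 differences, all uncalled except for that Axl value.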

Other observations

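Some genes that neighbour Fgfr1 on its chromosome stood out in recurrent array 6, where Fgfr1 itself was lowest. Ddhd2, a phospholipase gene, was at 12.39 there and at 8.81 to 9.96 on the other 23 arrays. Bag4, a chaperone regulator, was at 10.04 there and at 7.37 to 8.33 elsewhere. Plekha2, on the other side of Fgfr1, was at 7.64 in that array and at 9.67 to 12.07 on all others. Tm2d2 and Adam9, on the same side as Plekha2, were at 10.42 and 11.57 there, within the range of the other arrays. Fgf10, a ligand of the epithelial form of Fgfr2, was at 8.15 in recurrent array 2 and at 4.13 to 5.69 elsewhere. Pdgfra, Kit and Kdr are neighbours among the measured genes of their chromosome, and in recurrent array 8 they differed from the normal mean by 3.56, -2.14 and -1.51. They were singled out after their values were seen and have no test.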
